A study of Homo sapiens with 18 samples.

Results

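The genes described here are 205 intergenic long noncoding RNA genes, all carrying a symbol made of LINC and a number, in the human lung adenocarcinoma cell line A549 treated with sodium propionate (SP). They were chosen as the LINC genes with a summed raw count of at least 150 over the 9 libraries of the long experiment, and they are 205 of the 2271 LINC genes among the 61541 genes of each deposited table. Of the other LINC genes, 2066 were below that sum. The choice therefore used the read counts of the long experiment. Its fold changes and its counts of genes past a threshold are given as a description, also where they are set beside those of the short experiment. The short experiment shares no library with it, so its tests rest on libraries that the choice did not use. The sum holds more SP than control libraries, and genes that rise under SP enter more easily. As fold changes of the experiments were correlated, the share of genes higher in the short experiment is not free of the choice.

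All 18 libraries are bulk RNA-seq of wild-type A549, 1 established line, and each of the 6 groups has 3 libraries. The long experiment held untreated cells at 3 days (Control_3D) and cells given 5 mM SP for 3 days (SP_3D) or 12 days (SP_12D). The short experiment held untreated cells at 24 h (Control_24H) and cells given 5 mM SP for 3 h (SP_3H) or 24 h (SP_24H). SP_3H was thus compared with a 24 h control and SP_12D with a 3-day control, and time in culture cannot be told apart from SP there. The study calls the libraries of the short experiment biological replicates, and neither it nor the labels say whether each came from a separate culture, so the p-values measure the spread between these libraries. In bulk RNA, fewer cells of a kind and less RNA per cell cannot be told apart.

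Intergenic long noncoding RNAs are transcribed by RNA polymerase II from their own promoters, are usually spliced and polyadenylated like messenger RNA, and encode no known protein. Most are scarce and restricted to few cell types, and several sit beside genes for transcription factors and act on the transcription of that neighbour, while others bind proteins or microRNAs elsewhere in the cell. Propionate is a short-chain fatty acid made by gut bacteria, taken up and metabolised by cells, and it inhibits histone deacetylases. The study asked how it alters the epithelial state of lung cancer cells, and its RNA-seq followed gene expression over the time of treatment.

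Promoter sequences from RefSeq (assembly GRCh38.p14), which span 250 bases before and 50 bases from the annotated start, were matched to 140 of the 205 genes. The 6 shown here belong to genes on which the 24 h comparison turned, 2 of them higher under SP and 4 of them lower, and were read on the strand of the gene. LINC01694, LINC02732 and LINC02532 were not among those matched. Capitals mark matches, on either strand, to 7 motifs. They are the GC box GGGCGG, the CCAAT box, the TATA box as TATAAA, the cyclic AMP response element TGACGTCA, the AP-1 sequence TGAGTCA, the E-box CACCTG, and AACCGGTT, a sequence bound by grainyhead factors. The motifs were searched as whole words and no marked match overlaps another. The first 2 sequences are those of the genes that rose, at chr7:44038799-44039098 (plus strand) and chr12:52213534-52213833 (minus strand).
LINC00957: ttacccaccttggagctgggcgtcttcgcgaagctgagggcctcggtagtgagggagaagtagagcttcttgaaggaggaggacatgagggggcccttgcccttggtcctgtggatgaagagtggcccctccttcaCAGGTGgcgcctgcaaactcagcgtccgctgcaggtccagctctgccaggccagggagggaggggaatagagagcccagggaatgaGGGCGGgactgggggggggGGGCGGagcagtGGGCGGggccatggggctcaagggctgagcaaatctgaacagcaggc
LINC02874: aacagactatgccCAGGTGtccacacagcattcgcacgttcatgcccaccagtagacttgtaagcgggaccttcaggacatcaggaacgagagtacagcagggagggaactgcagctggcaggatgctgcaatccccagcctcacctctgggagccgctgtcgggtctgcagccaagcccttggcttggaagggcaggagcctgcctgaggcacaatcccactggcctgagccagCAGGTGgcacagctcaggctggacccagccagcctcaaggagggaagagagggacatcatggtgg
The other 4 are those of the genes that fell, at chr3:165206698-165206997 (plus strand), chr11:69479908-69480207, chr12:74292582-74292881 and chr20:22578593-22578892 (the last 3 on the minus strand).
LINC01322: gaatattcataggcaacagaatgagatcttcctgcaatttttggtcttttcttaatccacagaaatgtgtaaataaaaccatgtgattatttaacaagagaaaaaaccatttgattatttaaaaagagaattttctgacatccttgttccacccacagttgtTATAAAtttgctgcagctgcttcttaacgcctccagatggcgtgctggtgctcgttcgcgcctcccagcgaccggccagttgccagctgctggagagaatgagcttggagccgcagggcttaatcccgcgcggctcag
LINC02747: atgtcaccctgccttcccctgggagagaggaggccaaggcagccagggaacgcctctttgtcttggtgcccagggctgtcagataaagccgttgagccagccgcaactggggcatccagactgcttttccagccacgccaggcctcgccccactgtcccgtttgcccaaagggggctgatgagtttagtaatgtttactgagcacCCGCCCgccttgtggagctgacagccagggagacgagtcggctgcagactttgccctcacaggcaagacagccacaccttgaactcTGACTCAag
LINC02882: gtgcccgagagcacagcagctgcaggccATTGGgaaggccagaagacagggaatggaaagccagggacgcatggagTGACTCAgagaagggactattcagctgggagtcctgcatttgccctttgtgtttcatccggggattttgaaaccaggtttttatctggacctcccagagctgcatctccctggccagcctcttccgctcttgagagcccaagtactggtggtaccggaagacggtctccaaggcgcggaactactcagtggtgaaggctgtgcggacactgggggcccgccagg
LINC00261: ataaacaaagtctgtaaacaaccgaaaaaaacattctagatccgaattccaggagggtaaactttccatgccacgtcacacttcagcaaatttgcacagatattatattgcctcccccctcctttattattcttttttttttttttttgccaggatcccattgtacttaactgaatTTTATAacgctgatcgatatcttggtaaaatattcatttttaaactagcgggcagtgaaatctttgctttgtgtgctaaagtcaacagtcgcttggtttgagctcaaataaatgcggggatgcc

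The LINC00957 promoter carries GGGCGG at -28, -9 and 4 bases from the start, with CpG dinucleotides at 0.346 of the number expected from its base composition. LINC02874 has CACCTG at -237 and -15 and a CpG ratio of 0.215. Among the genes that fell, LINC00261 has a CpG ratio of 0.79 with TATAAA on the opposite strand at -74, and LINC01322 has a CpG ratio of 0.736 with TATAAA at -88. LINC02747 and LINC02882 have CpG ratios of 0.372 and 0.397, near that of LINC00957, so the printed promoters of the genes that rose and fell were not parted by it. LINC02747 has GGGCGG at -45 and TGAGTCA at 42, and LINC02882 has CCAAT at -222 and TGAGTCA at -174, all on the opposite strand. Over the 140 matched promoters the median CpG ratio was 0.493, against 0.579 over all 35116 promoters of the RefSeq table. It was 0.404 in the 26 promoters of genes higher at 24 h and 0.617 in the 14 of genes lower at 24 h. The letters GGGCGG were found in 49.3% of the matched promoters and in 45% of all promoters, CCAAT in 43.6% and 34.6%, TATAAA in 11.4% and 11.5%, and CACCTG in 25% and 20.6%. For TGAGTCA the shares were 6.43% and 4.95%, for TGACGTCA 3.57% and 1.85%, and for AACCGGTT 0% and 0.134%. These matches are a description of letters and no site was tested.

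Total counts per library ran from 15425281 to 21992046 in the long experiment and from 14187401 to 43765330 in the short one. The spread between replicates was wider in the short experiment, with a common biological coefficient of variation of 0.199 against 0.0996. The epithelial and A549 markers KRT8, KRT18, KRT19, EPCAM, CDH1, ALDH1A1 and AKR1C1 had reads in all 18 libraries, and the T cell marker CD3E had 0 reads in all 18. Of the other leukocyte, endothelial and fibroblast markers, PTPRC was at 0 in 14 libraries and DCN in 13, while COL1A1 ranged from 5.61 to 88.6 CPM (counts per 1000000, scaled by TMM factors) and CD14 from 2.28 to 37.4. Within the long experiment SP_12D replicate 3 stood apart. In SP_12D replicate 3 the 205 genes took 1666 reads per 1000000 counted reads, against 1297 and 1255 in the other SP_12D libraries, mitochondrial genes took 7.04% of its counts against 6.41% and 5.82%, and 37 of the 205 genes exceeded both other SP_12D libraries by over 1.5 times. In the other libraries of the long experiment this number was 0 to 7. In the short experiment it was 6 to 27, highest in Control_24H replicate 2. Control_24H replicate 1 was under both others by over 1.5 times in 36 genes, and SP_3H replicate 3 in 25. The numbers of LINC genes higher and lower at 12 days (adjusted p under 0.05) and the median difference from Control_3D are given with and without SP_12D replicate 3. So are the log2 fold changes of LINC00479, LINC00963, LINC01182 and LINC02990. The other 12-day values include it.

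The summed level of the 205 genes in reads per 1000000 counted reads was 1341 to 1418 in Control_3D, 1443 to 1489 in SP_3D, 849 to 998 in Control_24H, 839 to 930 in SP_3H and 1016 to 1112 in SP_24H. The 3 SP_3D libraries lay above the 3 controls of their experiment and the 3 SP_24H libraries above theirs, while SP_3H and Control_24H overlapped. In SP_12D, replicates 1 and 2 (1297 and 1255) lay below all Control_3D libraries and replicate 3 (1666) above them. A few genes carried much of this sum, since the top 10 genes of a library took 35.7% to 44.6% of it. The typical gene was weakly expressed, with a median of 0.979 RPKM (CPM divided by exonic length in kilobases) in Control_3D and of 0.562 in Control_24H, and 100 of them reached 1 RPKM in Control_3D.

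**Figure D1:**
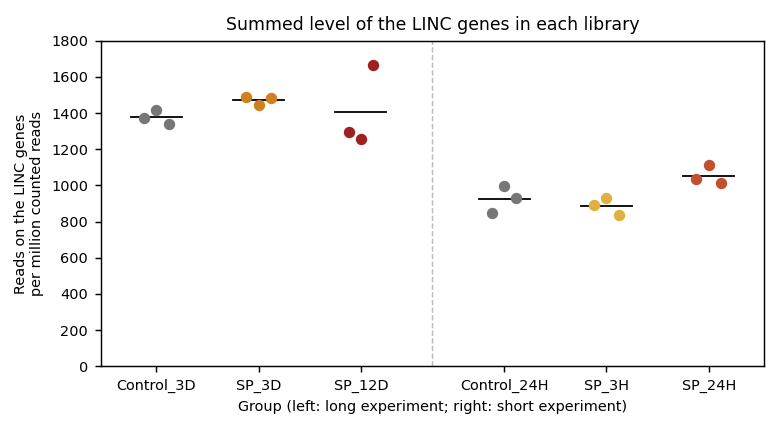
Reads per 1000000 counted reads that fell on the 205 LINC genes (vertical axis, from 0) in each library, by group; points are libraries and black lines are means of 3. The SP_24H libraries (1016 to 1112) lie above Control_24H (849 to 998), and SP_12D replicate 3 (1666) lies apart from the other SP_12D libraries (1255 and 1297).

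Per length, the highest level in Control_3D was that of LINC00674, at 153 ± 3.49 RPKM (SD, n = 3). This gene, LINC00888 (28.8 ± 2.44), LINC00680 (28 ± 0.66) and LINC03006 (11.4 ± 3.15) are annotated as transcribed pseudogenes with exonic lengths of only 160 to 421 bases in the GENCODE release 44 records used for length, which are not the records the reads were counted on, and their levels per length are uncertain for that reason. LINC02582 had the highest level among the genes annotated as lncRNA, at 34.1 ± 0.52 RPKM, followed by LINC01836 at 12.9 ± 0.86 RPKM. The order between LINC02582 and LINC01836 was clear of their spread, whereas LINC00888 and LINC00680 did not differ beyond theirs. Against these levels, SP moved LINC01836 to 4.62 ± 0.39 RPKM at 3 days and LINC02582 to 56.9 ± 0.62 RPKM, and LINC00674 stood at 131 ± 5.94 RPKM.

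At 24 h of SP, 35 of the 193 genes tested in the short experiment rose and 21 fell (edgeR quasi-likelihood test, Benjamini-Hochberg adjusted p under 0.05 over the 17377 genes tested). Without SP_24H replicate 2 the numbers were 19 and 12, without SP_24H replicate 3 they were 23 and 11, 23 rose without Control_24H replicate 1, and 13 fell without Control_24H replicate 2. The shares of all genes moved too. They were 10.6% higher and 5.22% lower without SP_24H replicate 2, beside 9.84% and 6.22% of the LINC genes. Without SP_24H replicate 3 they were 11.7% and 6.12%, beside 11.9% and 5.67%. Of all genes, 11.4% rose without Control_24H replicate 1 (11.7% of the LINC genes). Without Control_24H replicate 2, 9.56% of all genes fell (6.67% of the LINC genes). The full numbers are 18.1% higher and 10.9% lower, beside 16.8% higher and 12% lower over all genes tested, so neither share stood far from the background. Among 2285 other lncRNA genes the shares were 13.9% and 4.95%. The median log2 fold change was 0.22 in the LINC genes, -0.01 over all genes and 0.17 in the other lncRNA genes. The rises were wider than the falls: they ran from 0.42 to 3.66 on the log2 scale with 27 of 35 at least 2-fold, and the falls from -0.48 to -2.11 with 7 of 21 at least 2-fold. Over all genes too, large rises outnumbered large falls, with 108 higher and 11 lower by at least 2-fold at an edgeR adjusted p under 0.0001. All 3 SP_24H libraries lay above all 3 controls in 59 of the 193 genes (30.6%, beside 24.6% of all genes) and below them in 30 (15.5%, beside 19.8%). A correction for GC content and length moved the median of all genes to -0.13 at 24 h and to -0.12 at 3 days, and the shares of all genes to 14.3% higher and 24.7% lower at 24 h and to 21.3% and 33.5% at 3 days. With it, 37 LINC genes were higher and 32 lower at 24 h.

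LINC01694, on chromosome 21 (chr21:45590771-45603088, plus strand), had the largest rise. Its level was 0.0529, 0.264 and 0.105 CPM in the Control_24H libraries and 1.13, 2.39 and 1.72 CPM in the SP_24H libraries. The groups did not overlap, and the log2 fold change was 3.66 ± 0.467 (SE, edgeR adjusted p = 6e-04). LINC00957 and LINC02874, whose promoters are printed above, started from similarly low levels. For LINC00957 the controls were 0.265, 0.106 and 0.316 CPM and the SP libraries 1.01, 1.84 and 1.18 CPM, a log2 fold change of 2.50 ± 0.415 (adjusted p = 0.0022). For LINC02874 the controls were 0.318, 0.37 and 0.28 CPM and the SP libraries 1.58, 1.43 and 2.30 CPM, a log2 fold change of 2.45 ± 0.325 (adjusted p = 7.1e-04). In both genes every treated library exceeded every control. Exons of all 3 genes overlap an exon of another gene, with ENSG00000286082 for LINC01694, by 642 bases with the pseudogene RASA4CP for LINC00957 and by 226 bases with LINC00592 for LINC02874, and reads in the shared bases may belong to either. LINC02732 shares no exon, and it rose from 0.265, 0.317 and 0.245 CPM to 2.51, 1.5 and 2.47 CPM (log2 fold change 2.95 ± 0.409, adjusted p = 9e-04).

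Genes with a higher starting level rose too. LINC00963, described in prostate cancer cells, had 36.2, 48.1 and 48.3 CPM in the controls and 118, 147 and 131 CPM at 24 h. This is a log2 fold change of 1.58 ± 0.15 (edgeR adjusted p = 1.4e-04), with no overlap between the groups. LINC00665, described as raised in several carcinomas, had 0.847, 0.634 and 0.841 CPM in the controls and 2.75, 3.69 and 3.24 CPM under SP, a log2 fold change of 2.05 ± 0.261 (adjusted p = 5.9e-04). LINC01910 rose from 1.59, 1.16 and 1.79 CPM to 4.13, 3.38 and 3.75 CPM (1.29 ± 0.253, adjusted p = 0.0052), and LINC02643 from 1.01, 0.951 and 1.12 CPM to 2.43, 2.39 and 3.85 CPM (1.48 ± 0.24, adjusted p = 0.0020). In each of these 4 genes the lowest SP_24H library exceeded the highest control.

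The falls at 24 h were led by LINC01322 and LINC02747. LINC01322, whose span overlaps that of BCHE (the butyrylcholinesterase gene) on the opposite strand, had 4.87, 2.27 and 1.65 CPM in the controls and 1.21, 0.38 and 0.507 CPM under SP. The controls of this gene spread widely, and its log2 fold change of -2.11 ± 0.545 (edgeR adjusted p = 0.019) missed the threshold without Control_24H replicate 1 (-1.57, adjusted p = 0.0521), without SP_24H replicate 2 (-1.76, 0.0832) or without SP_24H replicate 3 (-1.95, 0.0713). LINC02747 was tighter. It went from 11.4, 12.3 and 11.6 CPM to 4.09, 3.92 and 2.80 CPM, a log2 fold change of -1.70 ± 0.219 (adjusted p = 6.1e-04). LINC02882 fell from 1.16, 1.37 and 1.05 CPM to 0.405, 0.358 and 0.371 CPM (-1.65 ± 0.235, adjusted p = 0.0010), and LINC02532 from 5.88, 6.76 and 4.07 CPM to 2.99, 2.06 and 2.26 CPM (-1.19 ± 0.244, adjusted p = 0.0064). The groups did not overlap in any of the 4 genes.

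LINC00261 also fell. It is transcribed next to FOXA2, the forkhead factor of endoderm and airway epithelium, is known from endoderm differentiation, and has been described as reduced in lung cancer. The controls had 2.91, 3.49 and 2.49 CPM and the SP_24H libraries 1.74, 1.23 and 1.25 CPM, a log2 fold change of -1.08 ± 0.228 (edgeR adjusted p = 0.0074). LINC02864 fell from 40.7, 41.3 and 32.0 CPM to 23.0, 25.6 and 20.4 CPM (-0.72 ± 0.137, adjusted p = 0.0044). LINC01836 fell from 9.0, 11.8 and 14.5 CPM to 8.05, 7.52 and 7.16 CPM, and its log2 fold change of -0.64 ± 0.184 (adjusted p = 0.029) did not pass with the replicate number as a block (-0.63, adjusted p = 0.0569), nor without Control_24H replicate 2 or 3 or without any of the SP_24H libraries (adjusted p 0.0524 to 0.0970). LINC02582, the most abundant per length among the lncRNA annotations, had 32.5, 45.3 and 62.1 CPM in the controls and 66.2, 74.9 and 58.4 CPM under SP, with overlapping groups and a log2 fold change of 0.51 that did not pass (adjusted p = 0.22).

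At the study's own thresholds, an adjusted p under 0.0001 and a change of at least 2-fold, edgeR called 0 of the 193 genes higher and 0 lower at 24 h, beside 0.622% and 0.0633% of all genes. Without adjustment 83 of the 193 genes had p under 0.05. The number over all genes at that limit is not set beside it here, so it shows nothing particular to the LINC genes. DESeq2 at the same thresholds called 10 higher and 1 lower, and its shares over all genes at these thresholds were not computed.

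**Figure D2:**
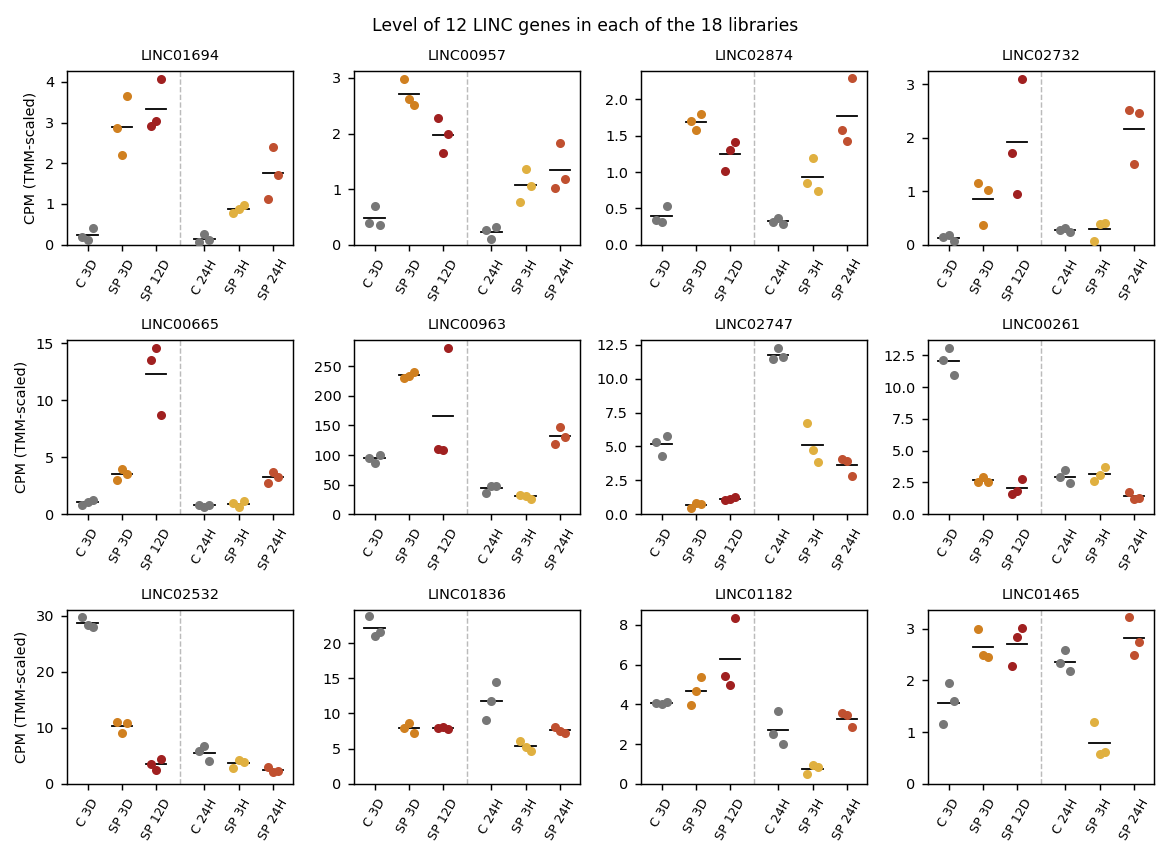
Level in CPM scaled by TMM factors (vertical axes, each from 0) of 12 LINC genes in the 18 libraries; points are libraries, black lines are means of 3, C is control, and the dashed line parts the long experiment (left) from the short one (right). LINC01694, LINC00957 and LINC02874 are higher under SP at all 4 times, LINC02747 and LINC01836 are lower at all 4 times, and LINC01182 and LINC01465 are low at 3 h alone among the SP times.

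After 3 h, 6 of the 193 genes were higher than the 24 h control and 11 lower (3.11% and 5.7%, beside 7.39% and 4.11% of all genes tested, by edgeR at an adjusted p under 0.05). The number higher was 1 without SP_3H replicate 2 and 2 without Control_24H replicate 1, and the number lower was 7 without Control_24H replicate 2, SP_3H replicate 1 or SP_3H replicate 2. In these fits the shares higher were 0.513% and 1.02%, beside 3.49% and 4.19% of all genes. The shares lower were 3.59%, 3.57% and 3.59%, beside 2.74%, 2.5% and 1.8% of all genes. With all libraries, 3.63% of other lncRNA genes were higher and 2.36% lower. The median log2 fold change of the LINC genes was -0.04, that of all genes 0.00. The 3 h libraries lay above the controls in 20 genes (10.4%, beside 15.6%) and below them in 34 (17.6%, beside 11.7%). The 3 largest rises were LINC01694, LINC00957 and LINC02874, which also rose at 24 h. LINC01694 reached 0.776, 0.876 and 0.978 CPM (2.66 ± 0.513, adjusted p = 0.010), LINC00957 reached 0.776, 1.36 and 1.06 CPM (2.18 ± 0.434, adjusted p = 0.012), and LINC02874 reached 0.847, 1.20 and 0.734 CPM (1.55 ± 0.351, adjusted p = 0.021). All 9 of these values lay above the controls given for 24 h. The LINC00957 call was lost without SP_3H replicate 2 (adjusted p = 0.0560), and that of LINC02874 without Control_24H replicate 1 (0.0599), Control_24H replicate 3 (0.0583) or SP_3H replicate 2 (0.102).

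LINC00205, whose start lies 137 bases from that of POFUT2 on the opposite strand, was the fourth rise at 3 h. It had 24.2, 33.9 and 35.9 CPM in the controls and 47.7, 69.9 and 52.1 CPM at 3 h, a log2 fold change of 0.85 ± 0.196 (edgeR adjusted p = 0.022). This call was lost without Control_24H replicate 1 (0.0725), Control_24H replicate 2 (0.0573) or SP_3H replicate 2 (0.0904). At 24 h the gene was at 35.1, 46.5 and 44.6 CPM, which overlapped the controls, with a log2 fold change of 0.42 (adjusted p = 0.13) that passed with the replicate number as a block (0.43, adjusted p = 0.0385).

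The 3 h falls included genes whose 24 h libraries overlapped the controls. LINC01182 had 2.49, 3.65 and 2.0 CPM in the controls, 0.494, 0.941 and 0.856 CPM at 3 h and 3.56, 3.45 and 2.84 CPM at 24 h. The 3 h level was below all controls (-1.75 ± 0.298, edgeR adjusted p = 0.0059), while the 24 h level overlapped them (0.29, adjusted p = 0.42). LINC01465, which shares 409 bases of exon with the MIRLET7I locus and its host gene, had 2.33, 2.59 and 2.17 CPM in the controls, 1.20, 0.584 and 0.611 CPM at 3 h (-1.65 ± 0.28, adjusted p = 0.0058) and 3.24, 2.48 and 2.74 CPM at 24 h. Its 24 h difference of 0.25 did not pass (adjusted p = 0.45) and was -0.15 after a correction for GC content and length. LINC01234, described in gastric and other carcinomas, had 32.7, 31.8 and 30.9 CPM in the controls, 17.4, 20 and 21.1 CPM at 3 h and 34.7, 32.2 and 32.9 CPM at 24 h, with a 3 h log2 fold change of -0.70 ± 0.11 (adjusted p = 0.0039). It was named after its values were seen.

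Other genes were low at both times. LINC02747 was at 6.70, 4.73 and 3.83 CPM at 3 h (-1.22 ± 0.218, edgeR adjusted p = 0.0071), all below the controls of 11.4 to 12.3. LINC01836 was at 6.14, 5.19 and 4.73 CPM (-1.15 ± 0.19, adjusted p = 0.0051). LINC03015 had 3.55, 3.80 and 2.63 CPM in the controls, 1.06, 1.30 and 1.02 CPM at 3 h (-1.54 ± 0.231, adjusted p = 0.0034) and 1.54, 2.15 and 1.99 CPM at 24 h (-0.79 ± 0.213, adjusted p = 0.022), and its 24 h call was lost without Control_24H replicate 1 or 2 or SP_24H replicate 1 or 3 (adjusted p 0.0585 to 0.0654). In LINC00963 the direction at 3 h was the opposite of that at 24 h, with 32.7, 31.4 and 26.2 CPM at 3 h (-0.55 ± 0.148, adjusted p = 0.040), but that 3 h call was lost in 8 of the 9 fits that left out 1 library, the exception being Control_24H replicate 1 (adjusted p 0.0529 to 0.121). LINC02732 and LINC00665, both risen at 24 h, stood at 0.23 (adjusted p = 0.84) and 0.20 (0.77) on the log2 scale at 3 h. At the study's thresholds edgeR called 0 genes in either direction at 3 h, as it did over all genes (0%). In edgeR, 44 of the 193 genes had an unadjusted p under 0.05, beside 4367 of all 17377 genes tested. DESeq2 called 0 higher and 5 lower at the study's thresholds, where its shares over all genes were not computed.

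SP_24H was also compared directly with SP_3H in the same fit. Of the 193 genes, 36 were higher at 24 h than at 3 h and 10 lower (18.7% and 5.18%, beside 11.7% and 8.4% of all genes), and the median difference was 0.29 on the log2 scale against -0.03 over all genes. LINC02732 differed most, by 2.72 ± 0.394 (edgeR adjusted p = 0.0021), followed among the genes described above by LINC00963 with 2.13 ± 0.153 (adjusted p = 1.9e-04), LINC01182 with 2.04 ± 0.29 (adjusted p = 0.0020) and LINC01910 with 1.96 ± 0.267 (adjusted p = 0.0017). In the other direction LINC02882 differed by -1.25 ± 0.241 (adjusted p = 0.0074) and LINC00261 by -1.19 ± 0.226 (adjusted p = 0.0070). The number higher ranged from 19 to 36 when 1 library was left out, and was 22 without SP_3H replicate 1, 20 without SP_3H replicate 3, 19 without SP_24H replicate 2 and 22 without SP_24H replicate 3. In the order given, these are 11.2%, 10.2%, 9.84% and 11.3%, beside 7.4%, 6.62%, 6.56% and 6.95% of all genes.

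**Figure D3:**
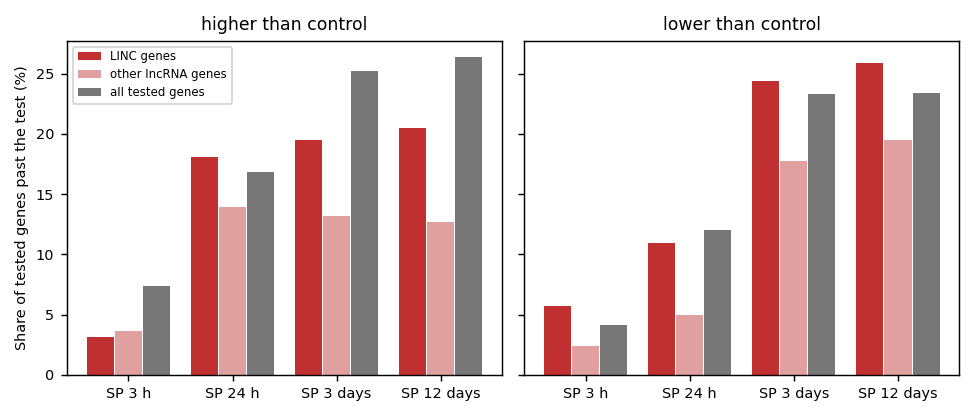
Share of tested genes past the test (edgeR, adjusted p under 0.05; vertical axis in percent, from 0) above the control (left) and below it (right) for the LINC genes, the other lncRNA genes and all tested genes. At 24 h 18.1% of the LINC genes were higher and 10.9% lower, beside 16.8% and 12% of all genes; the LINC genes of the 3-day and 12-day bars were chosen on the counts of that experiment.

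In the long experiment all 205 genes passed the filter on low counts, and the values that follow are those that chose them. The sum of 150 adds 6 SP libraries to 3 control libraries, so a gene high under SP enters more easily than one high in the control: 3 times the Control_3D reads stayed under 150 in 21 genes, 3 times the SP_3D reads in 18 and 3 times the SP_12D reads in 7. At 3 days, 40 genes were higher and 50 lower at an adjusted p under 0.05 (19.5% and 24.4%, beside 25.2% and 23.3% of all 17775 genes tested), and at the study's thresholds 10 were higher and 10 lower (4.88% each, beside 6.58% and 1.86%). The libraries did not overlap in 56 genes above the controls (27.3%, beside 30.5%) and in 61 below (29.8%, beside 30.7%). The median difference was 0.01 on the log2 scale, beside -0.02 over all genes. Without SP_3D replicate 1 or 2 the number lower was 33 in each case (16.1%, beside 18.9% and 18.8% of all genes).

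LINC00839 was highest by fold. Its level was 0.191, 0.251 and 0.177 CPM in Control_3D, 2.56, 2.93 and 3.05 CPM at 3 days and 5.12, 4.19 and 5.72 CPM at 12 days, a log2 fold change of 3.75 ± 0.305 and then 4.57 ± 0.282. LINC01694 went from 0.191, 0.125 and 0.414 CPM to 2.87, 2.19 and 3.65 CPM at 3 days (3.55 ± 0.37) and 2.91, 3.04 and 4.08 CPM at 12 days (3.76 ± 0.359). LINC02019, 2879 bases from DOCK3, went from 0.43, 0.251 and 0.0591 CPM to 1.40, 2.38 and 1.67 CPM at 3 days (2.78 ± 0.438). LINC02990 went from 0.239, 0.376 and 0.414 CPM to 2.32, 2.01 and 2.63 CPM at 3 days (2.76 ± 0.474) and 1.01, 0.798 and 2.75 CPM at 12 days, where its log2 fold change of 2.20 was 1.38 without SP_12D replicate 3. The first 3 of these genes were all under 0.5 CPM in every control library and above 1 CPM in every SP library of the long experiment.

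LINC00957 and LINC02874 were higher again, by 2.52 ± 0.292 and 2.1 ± 0.318 at 3 days and by 2.05 ± 0.299 and 1.67 ± 0.325 at 12 days. LINC00665 was higher at the later time. It was at 0.813, 1.07 and 1.24 CPM in the controls, at 2.99, 3.96 and 3.53 CPM at 3 days (1.76 ± 0.269) and at 13.5, 14.6 and 8.73 CPM at 12 days (3.57 ± 0.24), with no overlap between any of the 3 groups. LINC02732 was at 0.143, 0.188 and 0.0591 CPM in the controls, 1.16, 0.366 and 1.02 CPM at 3 days (2.64 ± 0.71) and 1.71, 0.948 and 3.10 CPM at 12 days (3.83 ± 0.613), so that the 3-day and 12-day libraries overlapped. LINC00963 was at 95.5, 87.2 and 100 CPM in the controls and 230, 233 and 241 CPM at 3 days (1.31 ± 0.364). At 12 days it was at 110, 108 and 282 CPM, and its log2 fold change of 0.82 was 0.19 without SP_12D replicate 3.

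Among the lower genes, LINC02747 went from 5.36, 4.32 and 5.79 CPM in Control_3D to 0.488, 0.853 and 0.718 CPM at 3 days (-2.90 ± 0.246) and 1.01, 1.10 and 1.28 CPM at 12 days (-2.17 ± 0.22). LINC00261 went from 12.1, 13.1 and 10.9 CPM to 2.56, 2.93 and 2.51 CPM (-2.17 ± 0.186) and then 1.58, 1.80 and 2.79 CPM (-2.52 ± 0.188). LINC02532 went from 29.7, 28.4 and 28 CPM to 11.1, 9.02 and 10.9 CPM (-1.47 ± 0.146) and then 3.54, 2.45 and 4.48 CPM (-3.03 ± 0.163). In each of these genes every SP library lay below every control by a wide gap. LINC01836 was at 23.8, 21.0 and 21.6 CPM in the controls, between 7.24 and 8.59 CPM at 3 days and between 7.75 and 8.03 CPM at 12 days.

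LINC03014 and LINC03015 adjoin each other on chromosome 7, LINC03015 at chr7:135853-149527 on the minus strand and LINC03014 at chr7:149549-155465 on the plus strand, upstream of FAM20C. LINC03014 went from 3.73, 3.13 and 3.84 CPM in the controls to 0.793, 0.731 and 0.538 CPM at 3 days (-2.37 ± 0.262) and 0.379, 0.649 and 0.665 CPM at 12 days (-2.61 ± 0.261). LINC03015 was lower by 0.98 ± 0.234 and 1.11 ± 0.231 on the log2 scale at the 2 times. LINC03068 went from 3.73, 3.63 and 4.91 CPM to 0.793, 0.488 and 1.02 CPM at 3 days (-2.40 ± 0.27) and stayed between 0.696 and 1.02 CPM at 12 days, whereas at 24 h of the short experiment it was at 1.46, 1.07 and 1.69 CPM beside controls of 1.27, 1.64 and 1.33 CPM, a difference of -0.02 (adjusted p = 0.97) that was 0.08 without Control_24H replicate 2 and 0.16 without SP_24H replicate 2.

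At 12 days, 42 genes were higher than Control_3D and 53 lower (20.5% and 25.9%, beside 26.4% and 23.4% of all genes), 13 and 9 of them at the study's thresholds (6.34% and 4.39%, beside 6.88% and 2.23%). The libraries lay above the controls in 46 genes (beside 28.7% of all genes) and below them in 57 (beside 27.3%). Without SP_12D replicate 3 the numbers were 42 higher and 75 lower (20.5% and 36.6%, beside 27.3% and 27.6% of all genes in that fit). The median difference was -0.12, and -0.21 without that library, beside -0.00 and -0.03 over all genes. Of the genes called higher, LINC00479 was at 1.20, 0.998 and 2.7 CPM beside controls of 0.564 to 0.709, and its log2 fold change of 1.35 ± 0.387 was 0.72 without replicate 3. LINC01182 moved likewise from 0.63 ± 0.198 to 0.33. The 3-day and 12-day comparisons share their control libraries, and so do those at 3 h and 24 h.

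Between the SP times of the long experiment, 8 of the 205 genes were higher at 12 days than at 3 days and 5 lower (3.9% and 2.44%, beside 4.46% and 3.65% of all genes). At the study's thresholds 1 was higher and 1 lower (beside 0.152% and 0.0281%). Without SP_12D replicate 3, at an adjusted p under 0.05, 15 were higher and 32 lower (7.32% and 15.6%), and the shares of all genes were 13.6% and 14.5%. LINC00665 was higher at 12 days by 1.81 ± 0.202 on the log2 scale, LINC02882 by 0.90 ± 0.261 and LINC00839 by 0.82 ± 0.186. LINC02532 was lower at 12 days by 1.56 ± 0.171. LINC02882 had 2.58, 2.51 and 1.54 CPM in the controls, 1.65, 1.28 and 1.20 CPM at 3 days and 3.03, 2.05 and 2.66 CPM at 12 days, so its libraries overlapped the controls at both times.

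The experiments share no library, and the 193 genes tested in both could be set against each other. Of the 35 genes higher at 24 h, 14 were also higher at 3 days. This is 40% of the genes higher at 24 h and 41.2% of those higher at 3 days and tested at 24 h. Of the 21 genes lower at 24 h, 14 were also lower at 3 days, 66.7% of the genes lower at 24 h and 28.6% of those lower at 3 days. Over all genes, 52.3% of those higher at 3 days were higher at 24 h and 34.7% of those lower at 3 days were lower at 24 h. Just 1 LINC gene higher at 24 h was lower at 3 days and none went the other way. Across the 193 genes, which are not independent replicates, Pearson's r between the log2 fold changes at 24 h and 3 days was 0.628, and 0.753 across the 16654 genes tested in both tables. With 12 days in place of 3 days r was 0.525 and 0.638. Then 13 genes higher at 24 h were higher at 12 days (37.1% and 36.1% of the lists). Another 11 were lower at both (52.4% and 21.2%), and 5 genes higher at 24 h were lower at 12 days. Over all genes, 44.2% of those higher at 12 days were higher at 24 h. Of all genes lower at 12 days, 28.6% were lower and 3.44% higher at 24 h. Shares of the 24 h lists were not computed over all genes. The genes higher at both 24 h and 3 days were LINC00479, LINC00665, LINC00957, LINC00963, LINC01315, LINC01426, LINC01589, LINC01694, LINC01910, LINC02643, LINC02732, LINC02874, LINC02977 and LINC03040. Those lower in both were LINC00261, LINC00857, LINC00888, LINC01322, LINC01515, LINC01833, LINC01836, LINC02532, LINC02747, LINC02864, LINC02882, LINC02987, LINC03015 and LINC03026. Of these, the 24 h calls of LINC00888 (-0.64) and LINC03040 (0.82) did not pass with a correction for GC content and length (-0.20 and 0.25, adjusted p = 0.513 and 0.352), and that of LINC01515 did not pass with the replicate number as a block (-0.97, adjusted p = 0.0663). The 24 h calls of LINC00479, LINC00857, LINC01322, LINC01426, LINC01515, LINC01589, LINC01836, LINC02977, LINC03015 and LINC03040 each missed the threshold in at least 1 fit that left out a library, with adjusted p from 0.0507 to 0.166. The 3-day threshold was missed in at least 1 such fit by LINC00479, LINC00963, LINC01322, LINC01515, LINC01589 and LINC02882, by LINC01515 and LINC02882 with DESeq2 as well, by LINC00963 and LINC02882 without a filter on low counts, and by LINC00888 with the correction for GC content and length.

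**Figure D4:**
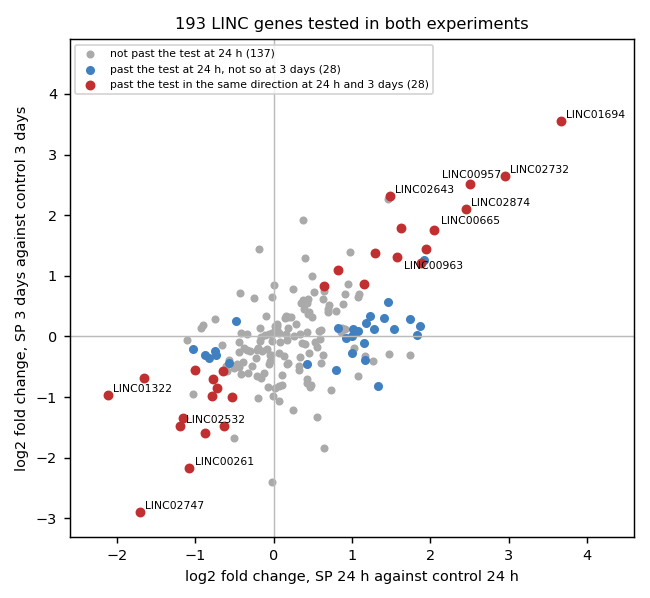
Log2 fold change at 24 h in the short experiment (horizontal axis) and at 3 days in the long experiment (vertical axis) of the 193 LINC genes tested in both; each point is a gene, coloured by whether it passed the test (edgeR, adjusted p under 0.05). In the same direction in both, 14 genes were higher and 14 lower, with LINC01694 (3.66 and 3.55) and LINC02747 (-1.70 and -2.90) at the ends.

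Of the 205 genes, 24 were on a list of LINC genes described in cancer, and 23 of these were tested in the short experiment. At 24 h 5 rose and 4 fell (21.7% and 17.4%, beside 16.8% and 12% of all genes), with a median log2 fold change of 0.01. The 5 that rose were LINC00665, LINC01315, LINC00963, LINC01305 and LINC00467. LINC01315 had 0.529, 0.898 and 0.421 CPM in the controls and 1.58, 2.04 and 1.92 CPM under SP (1.62 ± 0.332, edgeR adjusted p = 0.0064). LINC01305 had 0.265, 0.581 and 0.351 CPM in the controls and 1.01, 1.19 and 0.946 CPM under SP (1.41 ± 0.336, adjusted p = 0.013), and lost its call without Control_24H replicate 1 (0.0514) or SP_24H replicate 2 (0.0595). The 4 that fell were LINC00261, LINC01833, LINC00707 and LINC00857. LINC00857, described in lung adenocarcinoma, had 14.6, 14.1 and 13.9 CPM in the controls, 9.17, 8.17 and 9.90 CPM at 3 h (-0.64 ± 0.156, adjusted p = 0.027) and 12.0, 8.59 and 8.92 CPM at 24 h (-0.53 ± 0.155, adjusted p = 0.030). Its 3 h call was lost without Control_24H replicate 1 or 2 or SP_3H replicate 1 or 2 (0.0613 to 0.120), and its 24 h call without Control_24H replicate 1 or 2 or SP_24H replicate 2 or 3 (0.0617 to 0.121). At 3 h 1 gene of the list rose and 3 fell (4.35% and 13%, beside 7.39% and 4.11% of all genes), and at 3 days 5 were higher and 9 lower (20.8% and 37.5%, beside 25.2% and 23.3%).

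Long noncoding RNAs with a name of their own formed a separate list of 70 genes, of which 54 were tested in the short experiment. At 24 h 8 rose and 9 fell (14.8% and 16.7%, beside 16.8% and 12% of all genes), with a median of -0.12. TINCR, which acts in epidermal differentiation, rose from 1.75 ± 0.619 to 11.3 ± 2.29 CPM (SD, n = 3 each; log2 fold change 2.7 ± 0.321, edgeR adjusted p = 4.2e-04). HCP5, in the major histocompatibility complex, rose by 2.68 ± 0.372 (adjusted p = 8.9e-04), PCAT6 by 2.1 ± 0.347 (adjusted p = 0.0022) and MIAT by 1.45 ± 0.225 (adjusted p = 0.0016). The 9 that fell were MIR31HG (-1.37 ± 0.134, adjusted p = 1.5e-04), DANCR (-0.90), CRNDE (-0.85), HCG18 (-0.57), TP53TG1 (-0.56) and the snoRNA host genes SNHG8 (-0.78), SNHG6 (-0.73), SNHG29 (-0.53) and GAS5 (-0.42). At 3 h 2 genes of this list rose and 0 fell by edgeR (3.7% and 0%, beside 7.39% and 4.11% of all genes), with 8 of the 54 at an unadjusted p under 0.05.

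By position, the 205 genes lay on 23 chromosomes, most often on chromosome 1 (19 genes). The annotation places 194 as lncRNA and 11 as transcribed pseudogenes. Their exons span a median of 3509 bases, from 160 to 33198, and 18 genes have a single exon. Exons of 80 genes overlap an exon of another gene on either strand, and the reads of those genes cannot be assigned with certainty, as the strand setting of the counting is not given in the sources used here. Of the 125 genes without such overlap, 24 were higher and 10 lower at 24 h (beside 16.8% and 12% of all genes) and 1 higher and 7 lower at 3 h (beside 7.39% and 4.11%). Relative to the nearest protein-coding gene, 22 of the 205 overlap its span, 46 lie within 5000 bases of it and 30 lie over 100000 bases away. Of the 205, 11 start within 2000 bases of a protein-coding start on the opposite strand.

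At 24 h, 31 genes that rose had a neighbour that was tested. The neighbour also rose in 10 cases, fell in 0 and did not pass in 21. Of 17 genes that fell, the neighbour fell in 4, rose in 3 and did not pass in 10. Over all protein-coding genes tested at 24 h, 18.2% rose and 13.8% fell. Across the 162 pairs tested at 24 h, Pearson's r between the log2 fold changes of a LINC gene and its neighbour was 0.111, and across 174 pairs at 3 days it was 0.307. Near pairs were those with a gap of up to 5000 bases, overlapping spans included, and a LINC gene without exon overlap. In them r was 0.154 over 38 pairs at 24 h and 0.501 over 41 pairs at 3 days. Among genes over 100000 bases away it was 0.478 over 20 pairs at 24 h and 0.41 over 23 pairs at 3 days. At 24 h r was thus higher in the far pairs than in the near ones, and the difference was not tested. The points of each r come from the same libraries.

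Several of the 205 genes sit beside transcription factor genes that set cell lineage. In a list of 87 such factors, 70 were tested in the short experiment and 24 rose and 5 fell at 24 h (34.3% and 7.14%, beside 16.8% and 12% of all genes). A gap of 2356 bases parts LINC00261 from FOXA2, and while LINC00261 fell to 1.23 to 1.74 CPM at 24 h, FOXA2 was at 51.7, 56.2 and 65.7 CPM in the controls and 45.8, 46.2 and 44.4 CPM under SP. That difference in FOXA2, -0.35 ± 0.131, did not pass (edgeR adjusted p = 0.075). In the long experiment FOXA2 was at 87.5 to 92.5 CPM in the controls, 57.3 to 71.2 CPM at 3 days and 44.9 to 66.9 CPM at 12 days, log2 fold changes of -0.46 ± 0.129 and -0.75 ± 0.13, beside -2.17 and -2.52 for LINC00261. The difference between the genes of a pair was not tested.

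LINC01833 lies 2503 bases from SIX3, a homeobox gene of the developing forebrain and eye. LINC01833 fell from 3.97, 5.13 and 4.70 CPM to 2.31, 2.86 and 2.33 CPM at 24 h (-0.87 ± 0.176, edgeR adjusted p = 0.0060), and SIX3 rose from 0.424, 1.43 and 1.54 CPM to 3.52, 3.31 and 3.88 CPM (1.62 ± 0.353, adjusted p = 0.0086). The pair thus moved in opposite directions. In the long experiment LINC01833 was lower by 1.59 ± 0.206 at 3 days and SIX3 higher by 1.62 ± 0.271. Exons of LINC01833 share 490 bases with 3 other annotated genes.

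LINC01270, LINC01271 and LINC01273 lie around CEBPB, a leucine-zipper factor of differentiation and stress responses, at gaps of 100041, 107208 and 14154 bases. CEBPB rose at 3 h (0.80 ± 0.14, edgeR adjusted p = 0.0066) and at 24 h (0.87 ± 0.14, adjusted p = 0.0020). LINC01270 had 6.56, 7.56 and 6.31 CPM in the controls, 4.87, 6.39 and 5.18 CPM at 3 h and 11.0, 14.5 and 13.2 CPM at 24 h, a log2 fold change of -0.30 (adjusted p = 0.30) and then 0.92 ± 0.163 (adjusted p = 0.0030). LINC01271 shares 1719 exonic bases with LINC01270 on the other strand, and its rise of 1.00 ± 0.318 (adjusted p = 0.042) was lost without Control_24H replicate 1 or 2 or any SP_24H library (0.0555 to 0.132). LINC01273 did not pass (0.37, adjusted p = 0.32). In the long experiment LINC01270 was at 16 to 19.2 CPM in the controls and 13.8 to 18 CPM under SP, with overlapping groups. There LINC01271 was at 2.51 to 2.96 CPM in the controls, 2.27 to 2.32 CPM at 3 days and 1.65 to 2.22 CPM at 12 days, below the controls where it had been above them at 24 h, and CEBPB overlapped its controls (-0.06 ± 0.146 and -0.22 ± 0.146).

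LINC01426 lies 2915 bases from RUNX1. It rose from 0.159, 0.159 and 0.140 CPM to 0.486, 0.470 and 0.844 CPM at 24 h (1.94 ± 0.509, edgeR adjusted p = 0.019), a call lost without Control_24H replicate 1 (0.0559), Control_24H replicate 2 (0.0509) or SP_24H replicate 3 (0.0673), while RUNX1 differed by -0.13 ± 0.205 (adjusted p = 0.67). LINC01152, 79710 bases from SOX9, was at 1.17 ± 0.416 at 24 h (adjusted p = 0.062) and SOX9 at 0.66 ± 0.357 (adjusted p = 0.19). LINC02874 lies 13378 bases from the keratin gene KRT80, which rose at 24 h from 240, 253 and 343 CPM to 437, 388 and 495 CPM (0.66 ± 0.157, adjusted p = 0.013) and was higher at 3 days by 1.79 ± 0.131. LINC02732 lies 22335 bases from FDX1, the mitochondrial ferredoxin gene, which rose at 24 h by 0.47 ± 0.109 (adjusted p = 0.011). At 24 h the LINC gene and its neighbour rose in both pairs, the LINC gene by more. At 12 days LINC02874 was higher by 1.67 and KRT80 by 2.01. Other risen genes had neighbours that did not pass at 24 h. ZFP14, 2683 bases from LINC00665, was at 0.01 ± 0.221 (adjusted p = 0.97). NTMT1, 95197 bases from LINC00963, was at -0.12 ± 0.126 (adjusted p = 0.50).

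**Figure D5:**
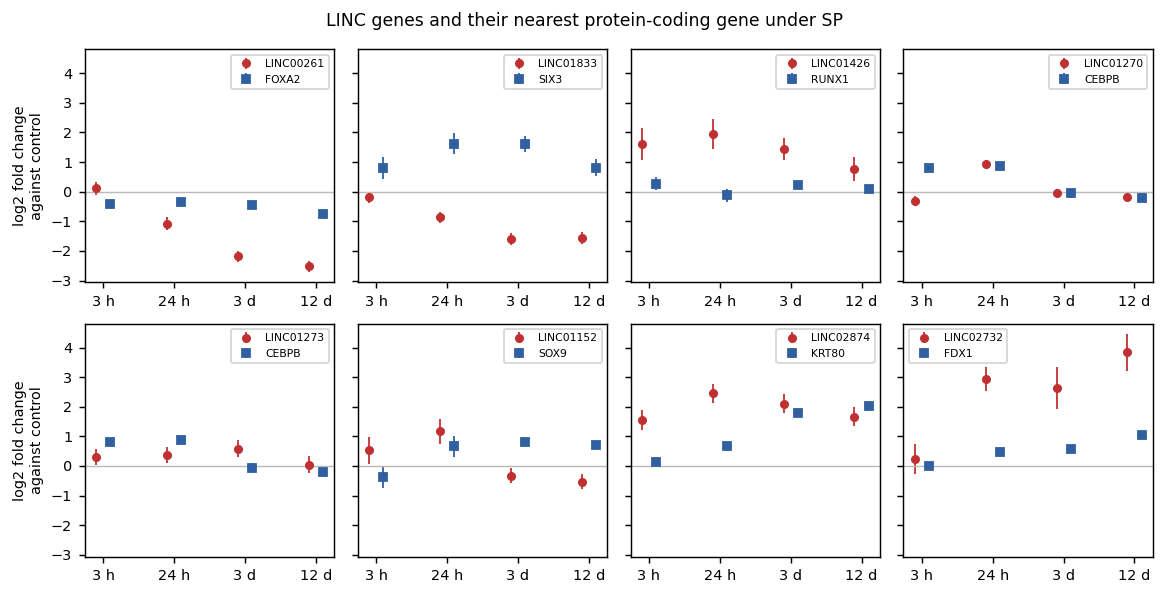
Log2 fold change against the control of the same experiment (vertical axis) at the 4 SP times of both experiments for 8 LINC genes (circles) and their nearest protein-coding or lineage gene (squares); bars are standard errors from edgeR. LINC00261 was at -2.17 at 3 days beside -0.46 for FOXA2, and LINC01833 (-1.59) and SIX3 (1.62) lie on opposite sides of 0.

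In the short experiment, 12 of the 205 genes had too few reads to be tested, with sums of 10 to 67 over its 9 libraries. They are LINC00326, LINC00475, LINC00494, LINC00663, LINC00839, LINC01602, LINC01786, LINC02015, LINC02019, LINC02912, LINC02990 and LINC03014. LINC00839 had 1 read over the 3 Control_24H libraries and 31 over the 3 SP_24H libraries, a ratio of 21.2 between levels scaled to depth, with a 95% exact counting interval of 3.54 to 865. LINC01602 had 2 and 31 reads (10.6, 2.7 to 91.6) and LINC00326 had 1 and 8 reads (5.48, 0.735 to 243). LINC02990, which lies 2128 bases from the transcription factor gene MAFA, had 0 and 29 reads, at least 6.62-fold higher when the floor is set at 3 counts over the control group. MAFA, a factor of pancreatic beta cells, rose at 24 h by 3.87 ± 0.315 (edgeR adjusted p = 7.3e-05). These intervals cover counting error only. Ratios were computed just for the untested genes with at most 3 control reads, so high values are partly built into that choice. LINC00839, LINC01602 and LINC02990 were also called higher under SP at 3 and 12 days, in the experiment that chose the 205 genes. The ratios are therefore a description and no test of a rise. In the other 8 genes the SP_24H reads were 29 to 41 and the control reads 4 to 20.

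At the limit of the rule, the genes just inside were LINC02057 and LINC02256, each with 151 reads over the 9 libraries, and LINC01842 with 157. Just outside were LINC01895 with 149 reads, LINC02899 with 144 and LINC01979 with 140. LINC01895 had 15 reads in Control_3D, 67 in SP_3D and 67 in SP_12D, and LINC02057 had 54, 35 and 62.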

How the data were processed

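RNA-seq of 18 A549 libraries was analysed from 2 tables of raw counts per gene, deposited by the authors as whole numbers, 1 table for each experiment. According to the study's methods, total RNA was sequenced in pairs of reads on an Illumina NovaSeq, aligned with STAR 2.7.9a to GRCh38 (Ensembl release 105) and counted with featureCounts, and the study tested with DESeq2 1.36.0. Strand and multi-mapping settings are not given in the sources used here, so reads of overlapping genes may be split or lost.

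The tables list 61541 genes, of which 61369 matched a GENCODE release 44 record by identifier. That record gave symbols, exon lengths and positions (GRCh38). Each table was fitted by itself over all 9 libraries with edgeR 4.0.16 (R 4.3.3, limma 3.58.1), after filterByExpr with a minimum count of 10 and TMM scaling, with the robust quasi-likelihood test on group. A call was a Benjamini-Hochberg adjusted p under 0.05 over all genes tested. Standard errors are the log2 fold change over the root of F. A prior count of 2 was used only for the log2 CPM behind the replicate correlations and the GC and length correction. DESeq2 1.42.0, RLE size factors, no filter, a GC and length correction, a replicate block, other member sets and leaving out each library were the alternatives. The scripts were tested on simulated data.

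The LINC genes and all lists were chosen with earlier results of these data known. Named genes were the 6 highest per length in Control_3D, the 4 largest rises and 4 largest falls of each comparison with a control (mean count of at least 20, libraries not overlapping), the 3 genes on either side of the sum of 150, up to 4 genes of the lists of cancer LINC genes and of named lncRNAs, and LINC genes beside a lineage factor. LINC00479, LINC00857, LINC01234, LINC01910, LINC02643, LINC02864 and genes in the lists of repeated calls were named after their values were seen.

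Replicate numbers were taken to pair libraries where every same-numbered pair of deviations correlates above 0.1. SP_24H and Control_24H met this rule (r of 0.499, 0.170 and 0.504 across genes), and the other comparisons did not. Libraries of different numbers were not compared, so the rule cannot show that the number itself pairs them. The labels do not say what a number marks. Counting intervals are exact at 95% and the floor is 3 counts. Depth was 15425281 to 21992046 counts per library in the long experiment and 14187401 to 43765330 in the short one.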

Additional observations from a re-analysis of the deposited data

Results flagged for a closer look

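The effect of SP at 24 h differed from that at 3 h in several of the genes named above, by the direct contrast of the treated libraries in edgeR. On the log2 scale the 24 h libraries were higher in LINC02732 (2.72), LINC00963 (2.13), LINC01182 (2.04), LINC01910 (1.96), LINC01465 (1.90), LINC00665 (1.85), LINC01271 (1.51), LINC03040 (1.40), LINC01270 (1.23), LINC01589 (1.21), LINC01305 (1.11), LINC02977 (1.09), LINC02643 (1.04), LINC02874 (0.90) and LINC03015 (0.74). They were lower in LINC02882 (-1.25), LINC00261 (-1.19), LINC01833 (-0.68), LINC00888 (-0.60) and LINC02864 (-0.53). Adjusted p-values ran from 1.9e-04 for LINC00963 to 0.049 for LINC03015. No explanation was tested, and the 3 h and 24 h cultures also differ in time in culture.

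Between 12 and 3 days, LINC00665 (1.81), LINC00839 (0.82) and LINC02882 (0.90) were higher at 12 days, and LINC02532 (-1.56), LINC02582 (-0.26) and LINC03040 (-0.53) were lower. They are the genes named above that were past an adjusted p of 0.05 in edgeR's contrast of those days, in the experiment that also chose them, so they are a description and no independent test.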

How the results depend on the processing

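Counts of LINC genes past the test are given as higher and lower. At the study's thresholds they were 10 and 10 at 3 days, 13 and 9 at 12 days, 1 and 1 between 12 and 3 days, and 0 and 0 at 3 h, at 24 h and between 24 and 3 h (edgeR, where 44, 83 and 76 genes had an unadjusted p under 0.05, and DESeq2 called 0 and 5, 10 and 1, and 12 and 0). The numbers over all genes are not set beside 83 and 76 here, so these show nothing particular to the LINC genes. Among genes without exon overlap, a smaller set, the counts at an adjusted p under 0.05 were 25 and 33 at 3 days, 25 and 33 at 12 days, 4 and 3 between those days, 1 and 7 at 3 h, 24 and 10 at 24 h, and 21 and 3 between 24 and 3 h. Over all genes tested the shares were 25.2% and 23.3% at 3 days, 26.4% and 23.4% at 12 days, and 4.46% and 3.65% between those days. They were 7.39% and 4.11% at 3 h, 16.8% and 12% at 24 h, and 11.7% and 8.4% between 24 and 3 h. For the DESeq2 counts at the study's thresholds no share over all genes was computed. DESeq2 at an adjusted p under 0.05 called 33 lower at 3 days and 31 lower at 12 days. These are 16.1% and 15.1%, beside 8.93% and 9.4% of all genes with reads, which had no filter on low counts. With a minimum sum of 300, a smaller set too, 26 were higher at 12 days, 5 were higher at 12 than at 3 days, and 23 were higher at 24 h. The size of that set is not given, so these counts have no share to set beside those of all genes. The GC and length correction gave 21 lower at 3 h, 32 lower at 24 h and 16 lower at 24 than at 3 h. These are 10.9%, 16.6% and 8.29%, beside 9.12%, 24.7% and 15.9% of all genes. With the replicate block as well it gave 23, 32 and 17, which are 11.9%, 16.6% and 8.81%, beside 11.1%, 26.9% and 19.1% of all genes. The cause was not tested.

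The replicate block by itself gave 41 higher and 20 lower at 24 h, where the numbers met the rule for pairing, against 35 and 21 without it. With the block the shares were 21.2% and 10.4%, beside 16.6% and 12.4% of all genes. At 24 h the block ended the calls of LINC01836 and LINC01515, added that of LINC00205, and changed no other 24 h call of a named gene. In the other comparisons the numbers did not meet that rule. Values of r were 0.043, 0.033 and 0.162 at 3 days, -0.010, -0.002 and 0.028 at 12 days and -0.086, -0.028 and -0.592 at 3 h. There the block gave 40 and 49, 44 and 51, and 5 and 8. At 3 days these are 19.5% and 23.9%, beside 25.6% and 23.9% of all genes. At 12 days they are 21.5% and 24.9%, beside 26.8% and 24.2%, and at 3 h 2.59% and 4.15%, beside 6.95% and 4.08%. The block was fitted over all 9 libraries of an experiment, so the 24 h values with the block come from a fit that also blocked the SP_3H libraries.

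Leaving out 1 library gave 32 to 50 higher and 33 to 56 lower at 3 days, 37 to 45 and 36 to 75 at 12 days, 4 to 15 and 2 to 32 between 12 and 3 days, 1 to 7 and 7 to 10 at 3 h, 19 to 36 and 11 to 21 at 24 h, and 19 to 36 and 4 to 13 between 24 and 3 h. The shares of all genes moved too. Higher and lower, they were 21.6% to 28.6% and 18.5% to 29% at 3 days. At 12 days they were 22.4% to 27.3% and 19.4% to 27.6%. Between 12 and 3 days they were 1.65% to 13.6% and 1.39% to 14.5%, and at 3 h 3.49% to 8.45% and 1.8% to 3.92%. At 24 h they were 10.6% to 19.7% and 5.22% to 17.3%, and between 24 and 3 h 6.56% to 13.5% and 3.17% to 11.2%. The number higher at 24 h was 23 without Control_24H replicate 1, 19 without SP_24H replicate 2 and 23 without SP_24H replicate 3, and the number lower was 13 without Control_24H replicate 2, 12 without SP_24H replicate 2 and 11 without SP_24H replicate 3. At 3 h the number higher was 2 without Control_24H replicate 1 and 1 without SP_3H replicate 2, and the number lower was 7 without Control_24H replicate 2, SP_3H replicate 1 or SP_3H replicate 2. Reversals were in differences that had not passed. At 3 h, LINC00261 ranged from -0.031 (without SP_3H replicate 3) to 0.24, with -0.01 without Control_24H replicate 3, LINC00665 from -0.038 to 0.46, and LINC01322 from -0.70 to 0.16. At 24 h, LINC03068 ranged from -0.17 to 0.16, with 0.08 without Control_24H replicate 2, and LINC01465 was at -0.15 with the GC and length correction and -0.16 with the block added. Of the values of single genes under alternatives that kept all libraries, 775 kept their direction and side of the threshold, 24 lost the call, 3 gained it and 2 reversed. With 1 library left out, 1091 kept them, 104 lost the call, 5 gained it and 6 reversed. Genes under about 1 CPM rest on few reads, which limits their fold changes.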
